A study of Mus musculus with 4 samples.

Results

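The immediate-early and stress response genes described here are a list of 32 genes, chosen by name from the 31053 genes of the deposited count matrices, and all 32 were found there. Many of them are induced within minutes of a signal, and also by tissue dissociation and handling. The list is therefore read first by library and then by cell class and genotype. The cells were thymic invariant natural killer T (iNKT) cells, which were sorted as thymocytes that bind the PBS57-loaded CD1d tetramer. C57BL/6 mice and mice with a germline deletion of Hivep3 (Hivep3-/-), which encodes a large zinc finger protein, gave 2 libraries each, and each library came from 1 mouse. Both genotypes were on the C57BL/6 background, were untreated and were 8 to 9 weeks old. After magnetic enrichment, CD44low and CD44high cells were mixed in equal numbers, so the shares of cell classes do not stand for the thymus. Single-cell 5′ libraries were made and sequenced; unique molecular identifiers (UMIs) counted the molecules of each gene in each cell. The sources used here do not say when each thymus was taken, how long each sort lasted or whether the libraries were handled together, so the library and the handling of its mouse cannot be told apart.

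The libraries held 31381738 to 48291764 UMIs, and 3651 to 7231 cells per library passed the filters. Between 26 and 58 barcodes were shared by each pair of libraries, at most 1.34% of a library. C57BL/6 replicate 1 stood apart from the other 3: it held 17330 Xist UMIs and none of the Y-linked genes checked, while the others held 3 to 25 and 4107 to 5590. The labels give no sex, and the study describes its C57BL/6 donors as female, which C57BL/6 replicate 2 goes against. The main gene tests are therefore also given without C57BL/6 replicate 1. For this library, sex cannot be told apart from the mouse and its handling. Hivep3 itself had 2055 and 1277 UMIs in C57BL/6 and 4459 and 2578 in Hivep3-/- cells, and these 5′ counts do not check the deletion, since the sources used here do not give the deleted part. Classes were rebuilt by clustering without the listed genes and named from markers: stage 0-like cells (366, 123, 382 and 420 cells in C57BL/6 replicates 1 and 2 and Hivep3-/- replicates 1 and 2), cycling-like cells, iNKT2-like, iNKT17-like and iNKT1-like cells (2423, 1709, 2534 and 1965). Throughout, values of the 4 libraries stand in that order. Erythroid markers were near 0 in every library, at most 0.000784 UMIs per 10,000, and B cell markers summed to 1.27 to 1.62 per 10,000. When the listed genes were used to cluster, a small cluster was named double positive thymocyte-like from markers such as Cd8a and Rag1. It held 107, 8, 18 and 15 cells, that is 1.48% of C57BL/6 replicate 1 and at most 0.391% of any other library. The main clustering named no such class.

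Immediate-early genes need no new protein to be transcribed: factors already present in the cell, such as the serum response factor, CREB and NF-kB, switch them on when a receptor fires or a cell is stressed. The first products, FOS and JUN proteins, form the AP-1 factor. Many of the others end the signal. Dual-specificity phosphatases inactivate MAP kinases, IkB-alpha and A20 hold back NF-kB, and ZFP36 proteins bring about the decay of short-lived mRNAs. In T cells many immediate-early genes, but not every gene of the list, rise after engagement of the antigen receptor. Stage 0 cells are the iNKT cells that have just been selected, and iNKT1, iNKT2 and iNKT17 cells are the effector subsets of the thymus.

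The promoters of 4 of the listed genes with the most UMIs are shown because each matches the letters of a motif searched for here. Each is 250 bases before to 50 bases after the transcription start, read 5′ to 3′ on the gene's strand, from RefSeq (GRCm38.p6), with the motif in capitals.
Dusp1 (chr17:26508423-26508722, minus strand; capitals, cyclic AMP response element, CRE): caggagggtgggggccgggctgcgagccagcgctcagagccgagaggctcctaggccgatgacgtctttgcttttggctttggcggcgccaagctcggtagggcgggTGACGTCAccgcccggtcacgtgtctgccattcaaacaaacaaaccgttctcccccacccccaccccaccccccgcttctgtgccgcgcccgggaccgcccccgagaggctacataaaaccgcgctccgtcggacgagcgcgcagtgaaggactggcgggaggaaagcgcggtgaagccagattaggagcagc
Nfkbia (chr12:55492598-55492897, minus strand; capitals, NF-kB site): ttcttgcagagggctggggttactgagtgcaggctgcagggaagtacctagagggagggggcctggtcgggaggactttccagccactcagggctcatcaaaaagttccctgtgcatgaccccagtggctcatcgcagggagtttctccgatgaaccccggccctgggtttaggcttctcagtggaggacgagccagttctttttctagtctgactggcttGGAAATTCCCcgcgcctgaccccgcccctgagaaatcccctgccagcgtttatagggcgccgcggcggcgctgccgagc
Zfp36 (chr7:28379179-28379478, minus strand; capitals, CArG box of the serum response factor): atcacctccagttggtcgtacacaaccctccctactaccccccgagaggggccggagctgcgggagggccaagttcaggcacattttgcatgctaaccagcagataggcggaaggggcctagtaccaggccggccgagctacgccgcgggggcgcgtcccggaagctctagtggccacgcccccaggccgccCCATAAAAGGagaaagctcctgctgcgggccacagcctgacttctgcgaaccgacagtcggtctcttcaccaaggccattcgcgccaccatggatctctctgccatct
Fos (chr12:85473640-85473939, plus strand; capitals, NF-kB pattern): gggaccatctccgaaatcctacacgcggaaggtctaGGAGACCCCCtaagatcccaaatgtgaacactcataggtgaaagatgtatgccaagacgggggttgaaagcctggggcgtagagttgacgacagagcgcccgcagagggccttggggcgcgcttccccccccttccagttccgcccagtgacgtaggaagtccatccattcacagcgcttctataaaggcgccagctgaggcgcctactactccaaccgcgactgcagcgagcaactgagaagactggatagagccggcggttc
The Dusp1 motif lies 143 to 136 bases before the start, that of Nfkbia 29 to 20, that of Zfp36 58 to 49 and that of Fos 214 to 205. Windows were found for 27 of the 32 genes; Ier2, Zfp36l2, Nfkbiz, Cd69 and Rgs1 were not matched. On both strands, the CRE (TGACGTCA) was in the windows of 4 of the 27 genes against 2.03% of all 27025 genes with a window, and the AP-1 motif (TGANTCA) in 2 against 8.97%. The CArG box was in 2 of the 27 against 1.81%, and the NF-kB pattern in 9 against 9.55%. Some genes have more than 1 window, and a match is a description of letters, not a bound site.

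Read by library, the summed level of the 32 genes differed as much within a genotype as between genotypes. Over all kept cells it was 139, 91.7, 62.3 and 98.6 UMIs per 10,000 UMIs of a cell, averaged over the cells of each library. C57BL/6 replicate 1 was the highest and Hivep3-/- replicate 1 the lowest. C57BL/6 replicate 1 was 1.51-fold replicate 2, and Hivep3-/- replicate 2 was 1.58-fold replicate 1. The genotype means were 115 ± 33.2 (SD, n = 2) in C57BL/6 and 80.5 ± 25.7 (SD, n = 2) in Hivep3-/-, the ranges overlapped, and the exact permutation test gave p = 0.667 (two-sided), where the smallest p that 2 libraries against 2 allow is 0.33. Thinned to 2000 UMIs per cell, the levels were 133, 91.0, 62.1 and 98.8, with the same order. The level over all kept cells also depends on the makeup of each library: iNKT1-like cells were 33.5%, 46.8%, 55.1% and 47.2% of them. With equal weight for each named class the genotype means were 75.2 in C57BL/6 and 62.2 in Hivep3-/-. With the UMIs of all cells pooled they were 83.8 and 71.1, and in both cases the ranges still overlapped.

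Among the named classes, the spread between libraries was widest in iNKT1-like cells, where the sum was 212, 114, 67.8 and 129 per 10,000, a 3.12-fold range. In stage 0-like cells it was 50.7, 32.8, 45.3 and 41.0, a 1.55-fold range, and Hivep3-/- replicate 1 was no longer the lowest. The cycling-like cells held 37.3, 23.3, 28.9 and 33.5, the lowest values of the named classes in every library. The iNKT2-like cells held 73.4, 51.3, 55.0 and 72.5, and the iNKT17-like cells 98.8, 59.0, 57 and 92.1. The iNKT1-like level was 2.88-, 2.22-, 1.23- and 1.78-fold the iNKT2-like level of the same library. The genotypes overlapped in every class, and the exact permutation p was 0.667 in iNKT1-like and iNKT17-like cells and 1 in the other classes. In iNKT1-like cells the genotype means were 163 ± 69.1 in C57BL/6 and 98.4 ± 43.3 in Hivep3-/- (SD, n = 2 each). The largest iNKT1-like cluster held 66.2%, 61.0%, 43.9% and 41.3% of the class, and the median depth of the class was 3493, 4642, 6516 and 5787 UMIs per cell. Thinned to 2000 UMIs per cell, the iNKT1-like level was 209, 113, 67.9 and 129.

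**Figure D1:**
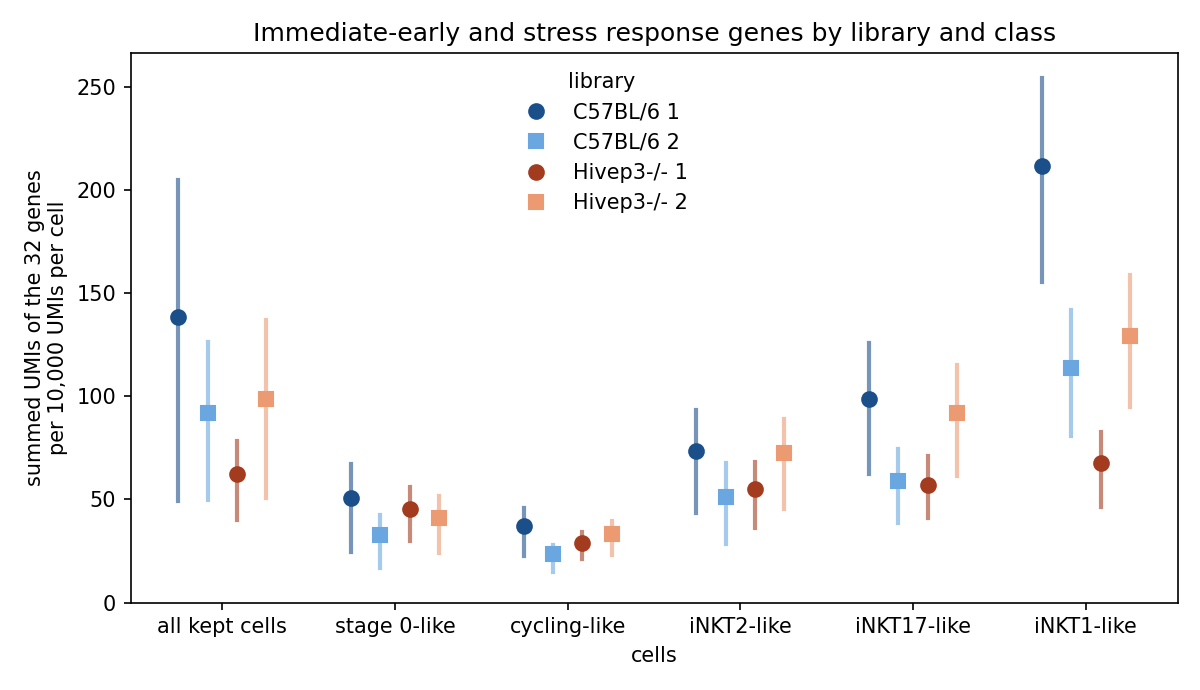
Summed UMIs of the 32 listed genes per 10,000 UMIs per cell (vertical axis) for all kept cells and each named class (horizontal axis). Points are the mean over cells of each library and bars run from the 25th to the 75th percentile of its cells. In iNKT1-like cells C57BL/6 replicate 1 lies highest at 212 and Hivep3-/- replicate 1 lowest at 67.8, and in no class do the genotypes separate.

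The order of libraries was shared by most of the listed genes in iNKT1-like cells. C57BL/6 replicate 1 was the highest library for 30 of 32 genes, against 18.1% of all 10608 genes tested in the class. Hivep3-/- replicate 1 was the lowest for 19 of 32, against 13.4%. Both held for 18 genes, against 5.08%. Within genotypes, the median gene was 1.80-fold higher in C57BL/6 replicate 1 than 2 and 1.69-fold higher in Hivep3-/- replicate 2 than 1. Among stage 0-like cells C57BL/6 replicate 1 was the highest for 12 of the 29 genes tested, against 16.1% of all genes, and Hivep3-/- replicate 1 the lowest for 11, against 15.4%.

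Over the 4 libraries, 8 genes gave 61.0% of the summed UMIs of the list: Junb, Dusp1, Dusp2, Btg1, Nfkbia, Zfp36, Fos and Ier2. UMIs of 5′ ends are not divided by gene length, so shares follow molecules and not length. Junb alone gave 14.7%. The share of Dusp1 was uneven among libraries, at 15.3%, 8.67%, 3.82% and 7.01%. Ier3 gave the least, 0.075%.

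The AP-1 and ATF factors were led by Junb (ENSMUSG00000052837, chr8:84974484-84978718, GRCm38), a JUN protein that pairs with FOS proteins. Levels of single genes are in CPM, the UMIs of the gene per 1000000 UMIs of the pooled cells of a library and class. In iNKT1-like cells Junb had 2433, 1749.6, 736 and 2229.8 CPM, with Hivep3-/- replicate 1 far below the other 3. Its genotype difference there was -0.54 on the log2 scale (SE 0.48). In iNKT2-like cells its levels were 862, 833, 817 and 1611, and in stage 0-like cells 323, 304, 243 and 416. Fos, its partner in AP-1, had 1464, 403, 314 and 719 CPM in iNKT1-like cells, 164, 96.0, 228 and 196 in iNKT2-like cells and 127, 112, 57.3 and 151 in stage 0-like cells. Its level in C57BL/6 replicate 1 was 3.63-fold that of replicate 2 in iNKT1-like cells. Fosb had 72.0, 33.5, 33.2 and 71.7 CPM in iNKT1-like cells, so that 1 library of each genotype was high and 1 low. Among the rest of this group in iNKT1-like cells, Jun had 155 to 615 and Jund 262 to 515 CPM, while Fosl2 had 18.2 to 33.8 and Atf3 11.6 to 40.4. Atf3, a repressor induced by stress, had at most 1 UMI per library in stage 0-like cells.

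Among the dual-specificity phosphatases, Dusp1, which acts on p38 and JNK, differed most between libraries. It had 4016, 1114, 291 and 1051 CPM in iNKT1-like cells, where C57BL/6 replicate 1 was 3.60-fold replicate 2 and Hivep3-/- replicate 2 was 3.62-fold replicate 1. The means were 2565 ± 2052 in C57BL/6 and 671 ± 538 in Hivep3-/- (SD, n = 2 each), and although the ranges did not overlap, C57BL/6 replicate 2 and Hivep3-/- replicate 2 were close. Its levels were 602, 232, 149.9 and 285 in iNKT2-like cells and 227, 93.0, 50.2 and 112 in stage 0-like cells. Dusp2, a nuclear phosphatase of ERK found in lymphocytes, had 905, 1197, 492 and 783 in iNKT1-like cells and was the 1 listed gene that was higher in C57BL/6 replicate 2 than 1. Its stage 0-like levels were 213, 224, 352 and 254, the opposite order of genotypes. Dusp5, another nuclear ERK phosphatase, had 43.0 to 120.5 in iNKT1-like cells and 11.2 to 32.8 in stage 0-like cells.

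Of the NF-kB feedback genes, Nfkbia, which encodes IkB-alpha and carries the NF-kB motif printed above, had 851, 565, 244 and 683 CPM in iNKT1-like cells. Hivep3-/- replicate 1 was the lowest in iNKT2-like cells too, at 301 against 609 to 806. The stage 0-like levels of Nfkbia were 258, 164, 189.6 and 264, and the genotypes overlapped. Tnfaip3, which encodes A20, ranged from 46.1 to 396 in iNKT1-like cells, Nfkbiz from 32.5 to 61.2 and Nfkbid from 31 to 42.1.

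The ZFP36 proteins bind AU-rich elements of mRNAs. Zfp36 had 1332, 461, 369 and 719.6 CPM in iNKT1-like cells, 652, 305, 395 and 440.3 in iNKT2-like cells and 192, 75.6, 243 and 126 in stage 0-like cells. C57BL/6 replicate 1 was the highest in both effector classes, whereas Hivep3-/- replicate 1 was the highest in stage 0-like cells. Zfp36l2 had 979.8, 569.8, 373 and 373 in iNKT1-like cells, and the Hivep3-/- pair lay below the C57BL/6 pair. Zfp36l1 ran from 113 to 295 in iNKT1-like cells and from 109 to 617 in stage 0-like cells.

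Btg1, an antiproliferative protein that recruits the deadenylase to mRNAs, differed little between libraries of a genotype, with 926, 721, 632 and 775 CPM in iNKT1-like cells and 479, 377, 595 and 600.4 in iNKT2-like cells. In stage 0-like cells it had 240.1, 140.1, 269.8 and 209. Its relative Btg2 had 253 to 364 in iNKT1-like cells. Ier2, an immediate-early nuclear protein, had 561, 397, 324 and 517 in iNKT1-like cells and 296, 273, 280.0 and 346 in iNKT2-like cells. In stage 0-like cells Ier2 had 275, 239, 497 and 418, higher in the Hivep3-/- pair. Ier5 had 210.5 to 421 in iNKT1-like cells, and Klf6, a Krüppel-like factor, 143 to 759.

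The remaining genes act at the membrane, on kinases or in stress. Rgs1, which shortens G-protein signals of chemokine receptors, had 1152, 697, 250.2 and 924 CPM in iNKT1-like cells, 129, 101, 39.1 and 115 in iNKT2-like cells and 20.1, 13.6, 2.37 and 11.2 in stage 0-like cells. Hivep3-/- replicate 1 was the lowest library in each of the 3 classes. Cd69, the early activation antigen that keeps cells in the tissue, had 398, 147, 173 and 247 in iNKT1-like cells but 307, 257, 250.4 and 200.1 in stage 0-like cells, against 53.3, 29.2, 57.4 and 61.0 in iNKT2-like cells. Tsc22d3, which encodes the glucocorticoid-induced leucine zipper, had 341, 267, 110.1 and 271 in iNKT1-like cells, 10.6, 9.15, 13.5 and 19.1 in iNKT2-like cells and 26.5, 26.0, 11.8 and 24.0 in stage 0-like cells. Sgk1, the serum- and glucocorticoid-regulated kinase, had 70.9, 51.5, 83.9 and 56.2, then 8.33, 6.17, 5.76 and 11.5, and 13.0, 16.1, 7.90 and 10.0 in the same 3 classes. For Sgk1 the highest iNKT1-like library was Hivep3-/- replicate 1, the lowest one for most of the list. In iNKT1-like cells, Pim1 and Pim3, survival kinases, had 96.6 to 205 and 32.7 to 82.5, and Rgs2 up to 288. Of the stress genes, Ppp1r15a, which restores translation through eIF2-alpha, had 77.2 to 346 and Gadd45b 13.7 to 57.4.

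**Figure D2:**
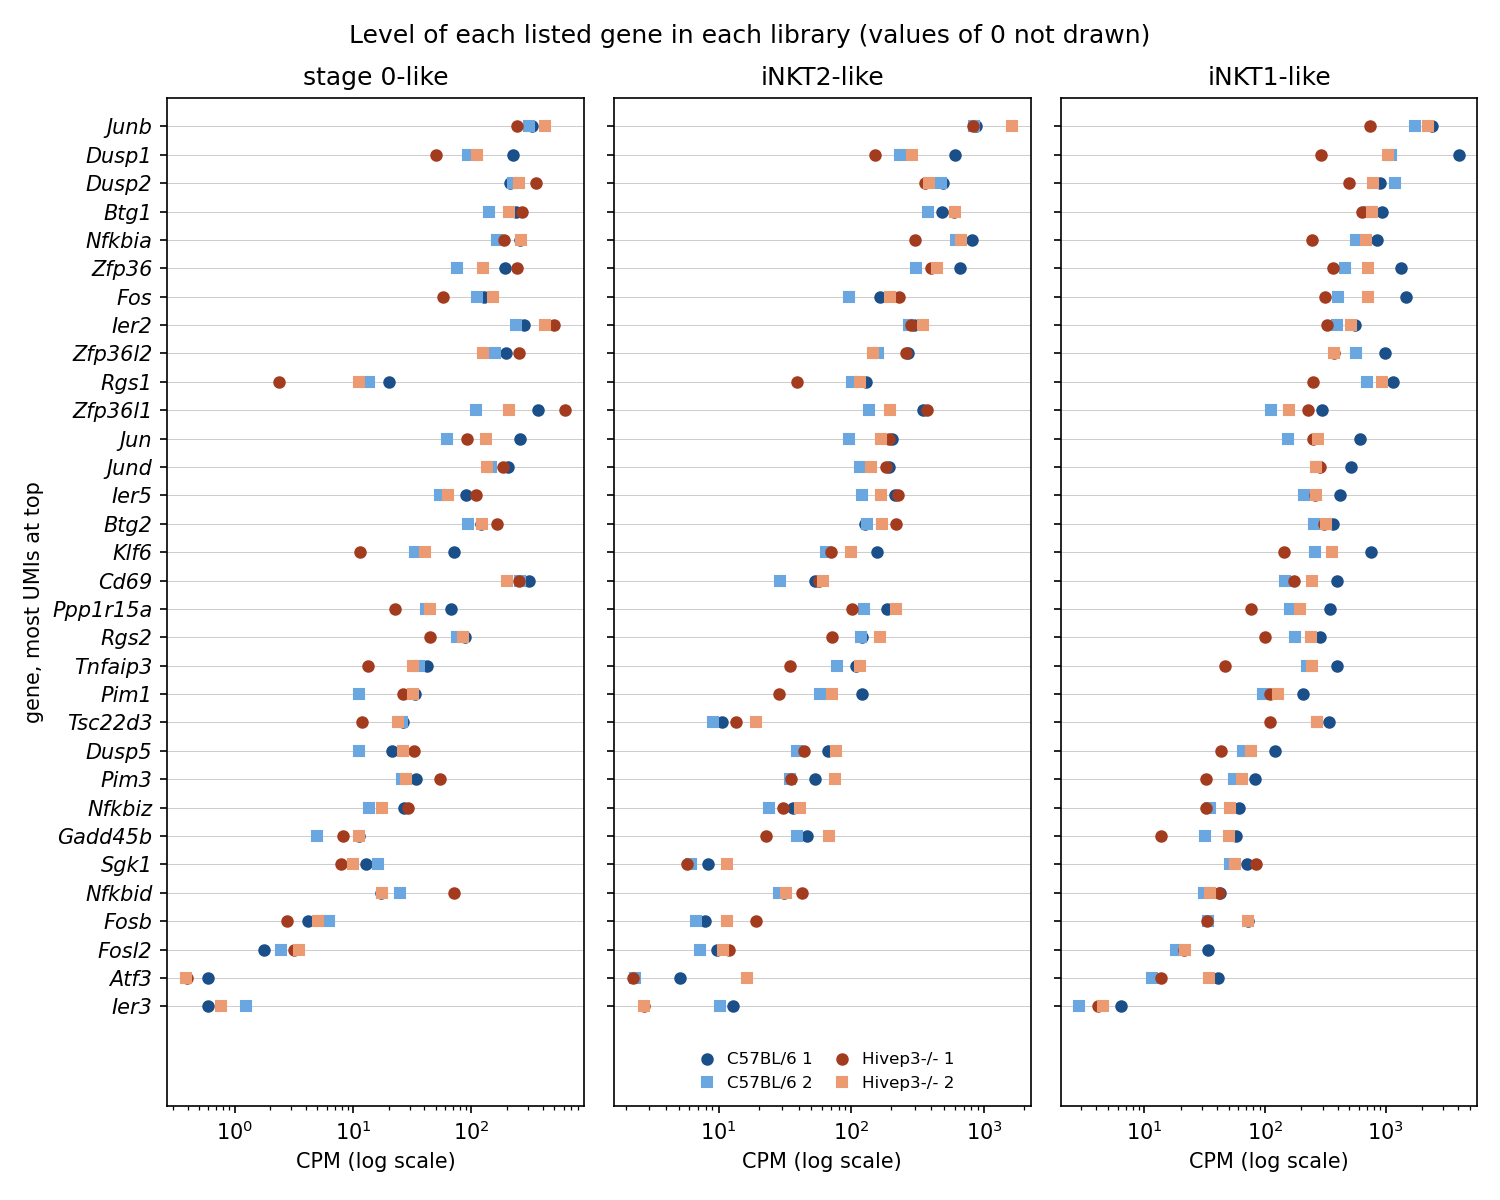
CPM (UMIs of the gene per 1000000; horizontal axes, log scale) of each of the 32 genes in stage 0-like, iNKT2-like and iNKT1-like cells, with 1 point per library. In iNKT1-like cells C57BL/6 replicate 1 is the rightmost point for 30 of the 32 genes, and Tsc22d3, Sgk1 and Rgs1 lie further right there than in the other classes in every library.

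Between classes, compared within each library, the listed genes were mostly higher in iNKT1-like than in iNKT2-like cells. With edgeR's quasi-likelihood test, library as a block and Benjamini-Hochberg adjustment over all genes, 25 of the 32 were higher and 1 was lower (adjusted p under 0.05), while 50.4% of all 11015 genes tested were called, 25.4% as higher and 25% as lower. The median log2 difference of the list was 0.88, against 0.01 over all genes. All 7 AP-1 and ATF factors rose, with a median of 1.29, as did the 3 phosphatases, Btg1, Btg2 and Klf6. Of the ZFP36 genes 2 rose and Zfp36l1 fell by 0.40, of the NF-kB feedback genes 2 of 4 rose, and neither stress gene passed. The classes were drawn from other genes of the same cells, so these p-values are not those of cells sorted independently.

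The 5 largest differences were those of Tsc22d3, at 4.28 on the log2 scale (SE 0.25, edgeR adjusted p = 6.46e-07), Sgk1, at 3.02 (SE 0.17, edgeR adjusted p = 4.09e-07), and Rgs1, at 2.91 (SE 0.08, edgeR adjusted p = 4.93e-09), followed by Fosb at 2.30 (SE 0.30, edgeR adjusted p = 0.000141) and Cd69 at 2.22 (SE 0.17, edgeR adjusted p = 3.95e-06). They were positive in each of the 4 libraries, from 2.93 to 4.88 for Tsc22d3 and from 0.77 to 3.03 for Fosb. Among the genes with the most UMIs, Dusp1 differed by 1.97 (SE 0.22) and Fos by 1.89 (SE 0.33), and both passed. Junb differed by 0.71 (SE 0.20, edgeR adjusted p = 0.0142), from -0.15 in Hivep3-/- replicate 1 to 1.5 in C57BL/6 replicate 1. Nfkbia, at -0.09, did not pass, with the edgeR adjusted p at 0.295. By library, 30, 28, 23 and 27 of the 32 genes were higher in iNKT1-like cells, and 22 were higher in all 4 libraries, against 31.7% of all genes. The median difference by library was 1.33, 0.93, 0.45 and 0.77, smallest in Hivep3-/- replicate 1. Without the library block, 17 genes were called in place of 26, against 35.2% of all genes. Without C57BL/6 replicate 1, 24 were higher and 2 lower, against 21.8% and 20.1%, with a median of 0.67.

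Against stage 0-like cells, 29 of the 32 genes were higher in iNKT1-like cells and none lower, where 60.3% of all 10790 genes tested were called, 31.7% as higher. Of the 29, Atf3 and Ier3 had at most 2 UMIs in any stage 0-like library and entered the test through the iNKT1-like cells; they are given no fold. Without them 27 of 30 genes were higher, with a median of 2.20, against 0.03 over all genes. Rgs1 differed most, at 6.47 (SE 0.14, edgeR adjusted p = 1.88e-10), with only 2.37 to 20.1 CPM in stage 0-like cells, so the size is loose. By library, from unscaled CPM with 1 added on each side, the Rgs1 difference was 5.77, 5.57, 6.22 and 6.24, each below the fitted value. Tsc22d3 differed by 3.83 and Dusp1 by 3.76. Cd69, at 0.22, Zfp36l1, at -0.22, and Nfkbid, at 0.61, did not pass. In this comparison the scaling of libraries (TMM) moved the median of all genes by 0.36; with library totals alone the list's median was 1.89 and 27 of the 32 genes were higher and 1 lower, against 19.8% and 46.7% of all genes, and the direction of Cd69 turned. Without C57BL/6 replicate 1, 27 genes were higher, against 29.3% of all genes, and the median of the 32 was 2.14.

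**Figure D3:**
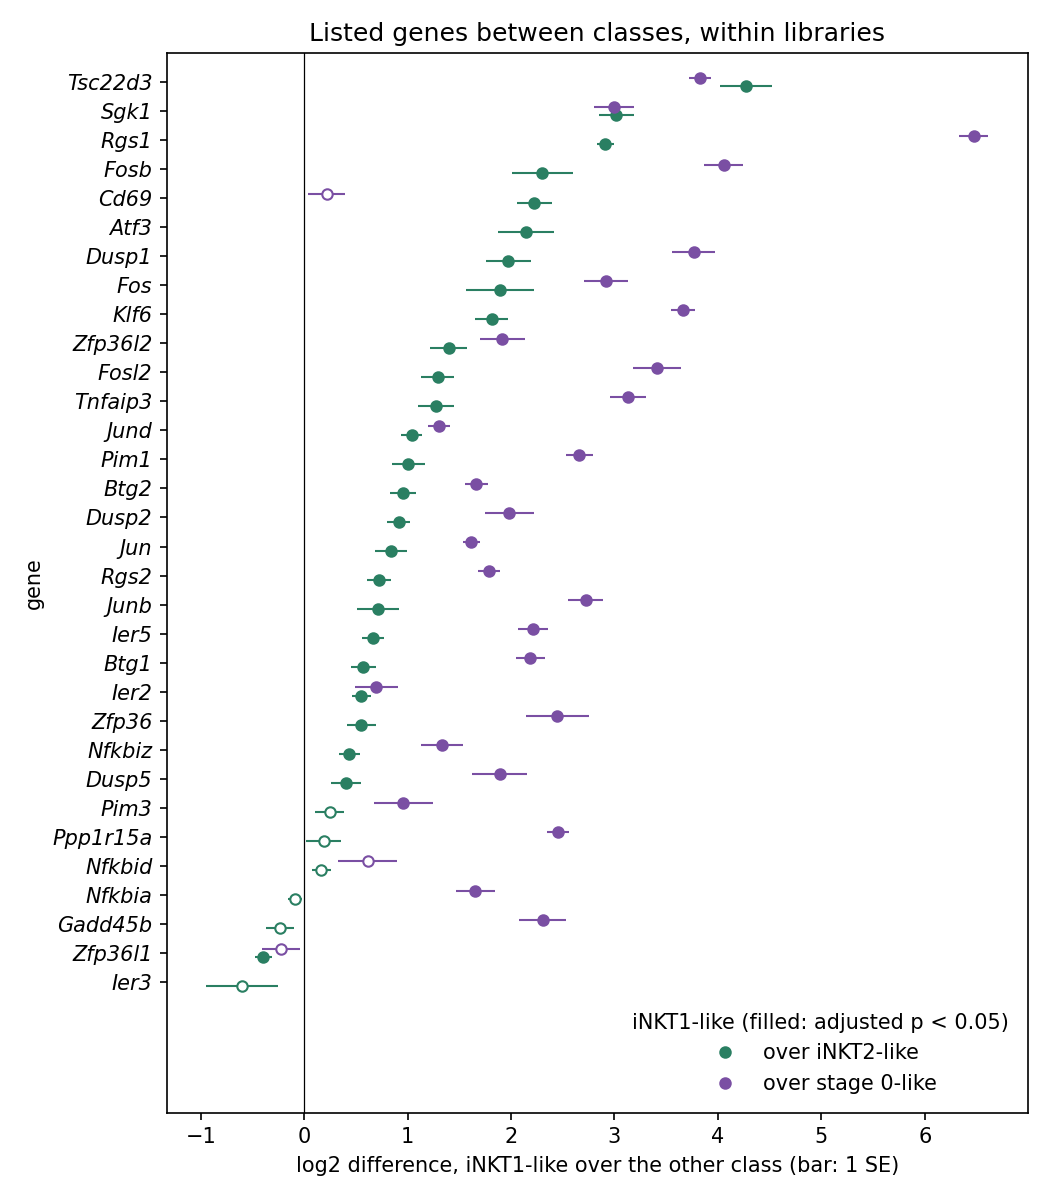
Log2 difference (horizontal axis; bars, 1 SE) of each listed gene between iNKT1-like and iNKT2-like cells (green) or stage 0-like cells (purple), from the edgeR fit with library as a block; Ier3 and Atf3 have no purple point. Filled points passed an adjusted p of 0.05, and Tsc22d3 is at 4.28 against iNKT2-like cells while Rgs1 is at 6.47 against stage 0-like cells.

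By genotype, no listed gene was called over all kept cells, where edgeR called 0.765% of 12291 genes. An unadjusted edgeR p under 0.05 was found for 6 of the 32, against 1472 of the 12291 genes, and DESeq2 called 1. The list's median log2 difference was -0.15, against 0.03 over all genes. Without C57BL/6 replicate 1 the list's median turned to 0.09. In stage 0-like cells 0 of the 29 genes tested were called, where the share of all genes was 0.414%, and DESeq2 called 0. There, 7 had an unadjusted edgeR p under 0.05, against 804 of all 8935 genes. In iNKT17-like cells 0 of 30 were called against 0.0658%, and 0 had an unadjusted edgeR p under 0.05, against 410 of all 7594 genes.

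Where the genotypes did not overlap, the listed genes went both ways. Over all kept cells 5 genes were higher in the Hivep3-/- pair (Btg1, Btg2, Cd69, Fosb and Sgk1), against 33.7% of all genes, and 4 were lower (Dusp1, Dusp2, Ier3 and Zfp36l2), against 13.8%. Stage 0-like cells had 4 higher (Btg2, Dusp2, Dusp5 and Ier2), against 30.7%, and 5 lower (Cd69, Rgs1, Sgk1, Tnfaip3 and Tsc22d3), against 11.3%. For cycling-like cells 6 were higher, against 39%, and 3 lower, against 14%. For iNKT2-like cells 8 were higher, Fos, Fosb, Fosl2 and Cd69 among them, against 30.1%, and 2 were lower, Dusp2 and Ier3, against 13.7%. For iNKT17-like cells 1 was higher, against 22.4%, and 3 lower, against 12.8%. None of these shares of the list went beyond the share of all genes for higher levels. For lower levels, only the share in stage 0-like cells did, and the others lay under the share of all genes.

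In iNKT1-like cells 31 of the 32 genes had a negative difference between Hivep3-/- and C57BL/6 (all but Btg2, Nfkbid and Sgk1 without TMM scaling), with a median of -0.54, against -0.0046 over all genes. None passed, where edgeR called 0.575% of 10608 genes. An unadjusted edgeR p under 0.05 was found for 3, against 831 of the 10608 genes, and DESeq2 called 1. The genotypes did not overlap for 3 genes, Dusp1, Dusp2 and Zfp36l2, which were lower in the Hivep3-/- pair, against 11.1% of all genes, and no listed gene was higher in the Hivep3-/- pair, against 25.7%. Dusp1 differed by -1.98 (SE 0.72, edgeR adjusted p = 0.516) and Dusp2 by -0.78 (SE 0.27, edgeR adjusted p = 0.470). The smallest adjusted p was that of Zfp36l2, at -1.13 (SE 0.25, edgeR adjusted p = 0.147). Single libraries decided the size of the median: it was -0.01 and -0.84 when C57BL/6 replicate 1 or 2 was left out, and -0.17 and -1.14 when Hivep3-/- replicate 1 or 2 was. The number of listed genes called was then 0, 2, 1 and 9, against 0.3%, 0.718%, 1.26% and 1.13% of all genes. In each of the 3 large clusters of the class alone, a choice made after seeing the data, no listed gene was called by edgeR. The calls over all genes were 35, 30 and 34, and the list's median was -0.48, -0.65 and -0.43. An unadjusted edgeR p under 0.05 was found for 6, 6 and 4 listed genes, against 694 of 9756, 563 of 9029 and 528 of 9259 genes.

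**Figure D4:**
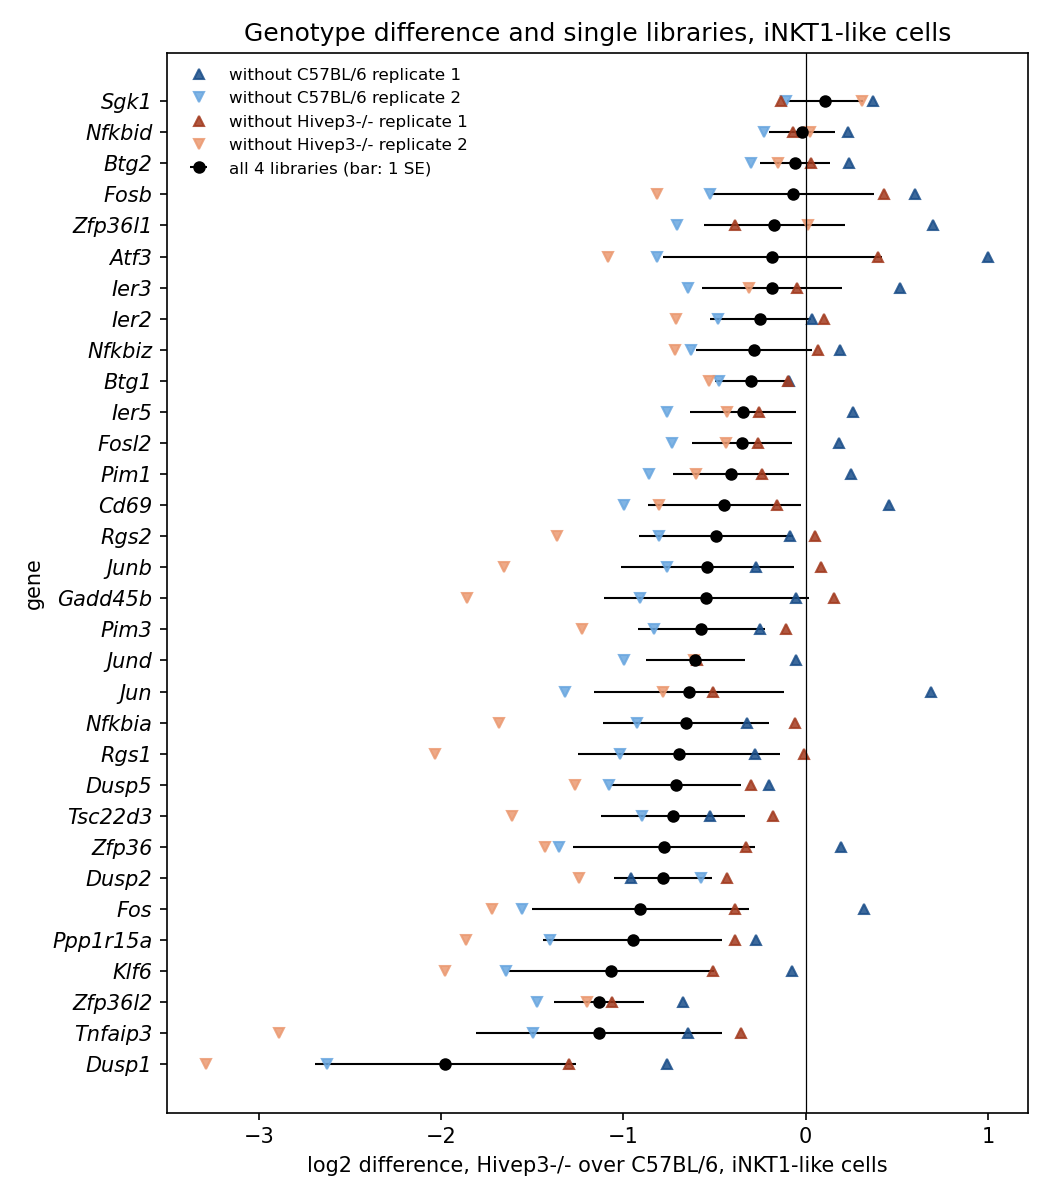
Log2 difference between Hivep3-/- and C57BL/6 iNKT1-like cells (horizontal axis) for each listed gene, with all 4 libraries (black; bars, 1 SE) and with each library left out in turn (triangles). Without C57BL/6 replicate 1 the median moves from -0.54 to -0.01, and without Hivep3-/- replicate 2 it moves to -1.14.

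The genes called by genotype were few and lay in the cycling-like and iNKT2-like cells and in an unnamed cluster. In cycling-like cells 3 of the 31 genes tested passed, against 3.79% of all genes. Ier3, an immediate-early protein that bears on survival and NF-kB signalling, had 14.2, 12.5, 2.66 and 0.432 CPM there, from 204, 77, 6 and 2 UMIs. Both Hivep3-/- libraries were low, and the fitted difference was -3.61 (SE 0.53, edgeR adjusted p = 0.015). Ier3 passed the low-count filter through the C57BL/6 libraries, where it was high, and the Hivep3-/- side rests on 8 UMIs, so the size is loose: it was -5.05 without Hivep3-/- replicate 1 and -2.53 without replicate 2. Cd69 had 44.5, 26.1, 91.2 and 119 CPM, higher in both Hivep3-/- libraries, and differed by 1.41 (SE 0.27, edgeR adjusted p = 0.036). Dusp2 had 335, 301, 191 and 231, lower in both, and differed by -0.74 (SE 0.15, edgeR adjusted p = 0.0393). The call of Cd69 was lost without Hivep3-/- replicate 2 and that of Dusp2 without C57BL/6 replicate 1, without Hivep3-/- replicate 1 and without TMM scaling. The cycling-like cells numbered 1153, 390, 177 and 339. Their makeup differed between libraries: a cluster led by Hist1h2ap held 16.6%, 19.0%, 20.3% and 33.6% of them. The part of makeup in these calls was not tested.

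In iNKT2-like cells Ier3 was the 1 gene called of 32, against 0.289% of all genes. It had 12.8, 10.2, 2.76 and 2.76 CPM, from 167, 48, 11 and 12 UMIs, and differed by -2.16 (SE 0.30, edgeR adjusted p = 0.0488). The adjusted p was 0.0769 without TMM scaling and 0.102 without Hivep3-/- replicate 1. In iNKT1-like cells Ier3 had 6.4, 2.89, 4.16 and 4.54 CPM and the genotypes overlapped. In cluster 8, unnamed and led by Tnni1, Klrb1a and Htra3, Dusp1 was called, against 3.22% of all genes: it had 654, 219, 51.5 and 148 CPM and differed by -2.24 (SE 0.48, edgeR adjusted p = 0.0295). That call was lost without C57BL/6 replicate 1, at -1.15 (edgeR adjusted p = 0.425), and also without TMM scaling and by DESeq2. In clusters 3 and 6, also unnamed, 0 of 31 listed genes each were called, against 0.125% and 0.559% of all genes. An unadjusted edgeR p under 0.05 was found for 6 and 9 of them, against 601 of 8803 and 543 of 7518 genes.

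The genotype difference itself was compared between stage 0-like and iNKT1-like cells of the same libraries. It differed for 7 of the 32 genes by edgeR's interaction test, against 3.01% of all genes, and in all 7 the difference was higher (less negative or more positive) in stage 0-like cells. The list's median was 0.48, against 0.01 over all genes. Dusp1 differed by -1.13 in stage 0-like and -1.98 in iNKT1-like cells, with an interaction of 0.97 (SE 0.18, edgeR adjusted p = 0.00226). Dusp2, at 0.34 and -0.78, had the opposite sign in each class, with an interaction of 1.14 (SE 0.22, edgeR adjusted p = 0.00313), and so did Ier2, at 0.70 and -0.25. Zfp36l2 and Dusp5, named here after their values were seen, gave interactions of 1.05 and 1.5. Nfkbia and Junb gave 0.80 and 0.66, with stage 0-like differences of -0.04 each that turned positive without TMM scaling. Without C57BL/6 replicate 1, 5 genes were called as higher and 1 as lower, against 2.16% of all genes, and the list's median was 0.32. When Hivep3-/- replicate 1 was left out the count was 0, against 1.13%, when C57BL/6 replicate 2 was left out it was 2, against 0.963%, and DESeq2 called 0, against 0.964%.

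**Figure D5:**
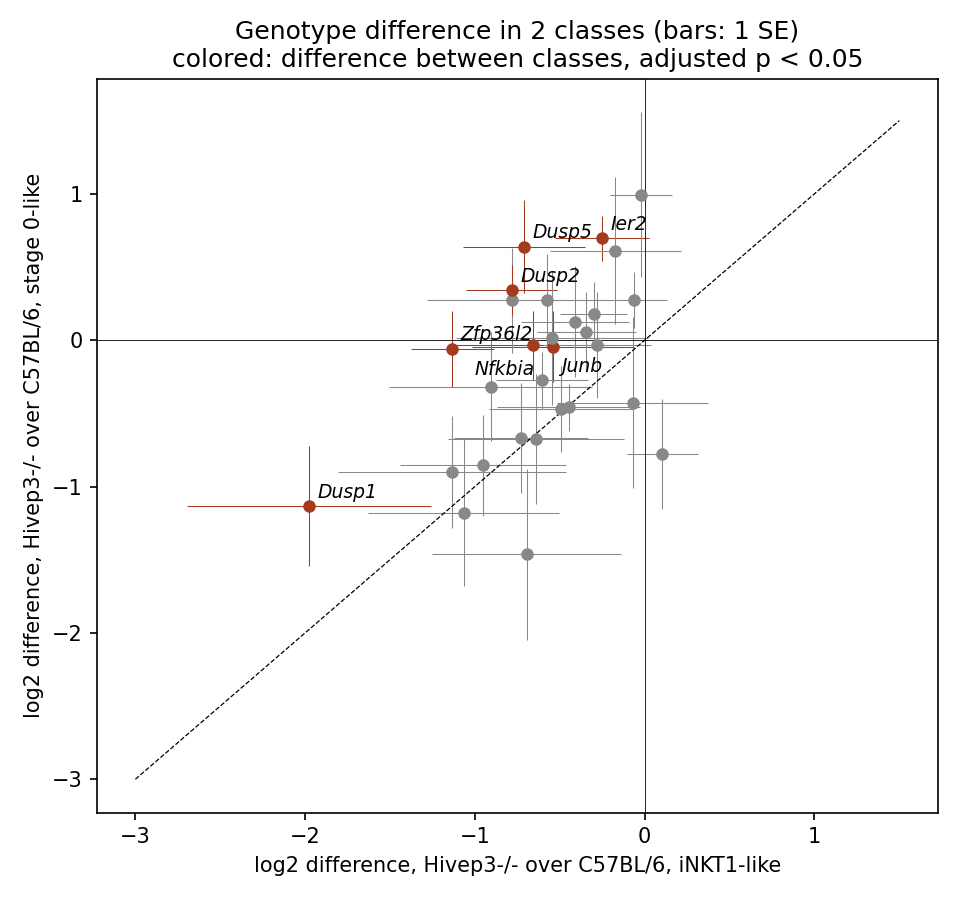
Log2 difference between Hivep3-/- and C57BL/6 in stage 0-like cells (vertical axis) against that in iNKT1-like cells (horizontal axis) for the listed genes tested in both; bars are 1 SE and the dashed line marks equal differences. The 7 colored genes, which differ between classes, lie above the line, and Dusp1 is furthest left at -1.98.

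Other genes of the same pathways were counted in the same comparisons. Of these lists, only the other immediate-early genes and the heat shock genes were left out of the clustering as lists. Genes of the remaining lists could help to draw the classes, so their counts between classes are not independent of the classes. In iNKT1-like over iNKT2-like cells, 8 of 16 other immediate-early genes rose and 4 fell, and 6 of 8 further glucocorticoid-responsive genes rose and 1 fell. Of 28 family relatives of the listed genes, 10 rose and 8 fell. Of 13 heat shock genes 4 rose and 3 fell, and of 6 integrated stress response genes tested 1 rose and 2 fell. Of 15 further NF-kB pathway genes 5 rose and 2 fell. The shares of all genes in this comparison were 25.4% higher and 25% lower. The heat shock genes did not share the order of libraries: their sum in iNKT1-like cells was 60.1, 50.6, 82.4 and 53.9 UMIs per 10,000, highest in Hivep3-/- replicate 1, where the listed genes were lowest. In iNKT1-like over stage 0-like cells 14 of the 15 NF-kB pathway genes and 5 of 6 integrated stress response genes rose and none fell. There, 31.7% of all genes were higher and 28.6% lower. Of the other lists, 7 of 16 immediate-early genes rose and 5 fell, and 10 of 27 family relatives rose and 11 fell. Among 13 heat shock genes 4 rose and 5 fell, and among 8 glucocorticoid-responsive genes 4 rose and none fell. By genotype in iNKT1-like cells, Rgs16, a regulator of G-protein signals, was called among the relatives, at 2.36 (edgeR adjusted p = 0.0224), and no gene of the other lists passed. At clustering resolution 1.2, Rgs16 was among the leading genes of a small cluster marked by Klrg1 and S1pr5. In the main clustering, a cluster with these markers gave the iNKT1-like class 42 cells of Hivep3-/- replicate 1 and at most 4 of any other library. Its part in the Rgs16 call was not tested.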

How the data were processed

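Single-cell 5′ gene expression libraries of sorted thymic iNKT cells from 2 C57BL/6 and 2 Hivep3-/- mice were analysed. The deposited values are UMI counts per gene and cell without normalization, for which the authors aligned reads to mm10 in Cell Ranger 3.1.0; per the submitters' processing notes Seurat 3.1.4 was used after that. The members and lists were chosen with earlier results of these data known. Cells with at least 500 and under 4100 genes, at least 1000 UMIs and under 6% mitochondrial UMIs were kept. Scrublet (Scanpy 1.11.5) called at most 5 cells per library, so it had not worked and no doublets were removed; removing the highest 5% of scores was an alternative. Cells were clustered in R 4.3.3 (Seurat 5.3.0) after a mutual nearest neighbour correction, without the listed genes, other immediate-early genes and heat shock genes, and clusters were named from markers; rebuilt classes may differ from those of the study.

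The sum of the listed genes was taken per 10,000 UMIs in each cell and averaged by library, and the genotypes were compared by a two-sided exact permutation test. For single genes, counts were summed per library and class and tested with edgeR 4.0.16 (quasi-likelihood, filterByExpr, TMM, Benjamini-Hochberg over all genes tested, threshold 0.05); fold changes are on the log2 scale. The fit was tested on simulated data. DESeq2 1.42.0, other filters, scalings, clusterings and each library left out were alternatives; those with B cell-marked cells removed, single clusters or no TMM scaling were chosen after seeing the data. Every listed gene is accounted for; values by library are given for genes called by genotype, the 8 with the most UMIs and the 5 with the largest iNKT1-like against iNKT2-like difference, and other listed genes given by library or by value were named after their values were seen. RNA free in the droplets was not removed, and its part in the levels was not tested. Promoters came from RefSeq (GRCm38.p6) and gene positions from GENCODE on GRCm38.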

Additional observations from a re-analysis of the deposited data

Results flagged for a closer look

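For 7 of the 32 genes the genotype difference was not the same in stage 0-like and iNKT1-like cells, by a test of the difference itself (edgeR interaction term, Benjamini-Hochberg adjusted over all genes). On the log2 scale, the stage 0-like difference minus the iNKT1-like difference was 0.97 for Dusp1 (edgeR adjusted p = 0.00226), 1.14 for Dusp2 (edgeR adjusted p = 0.00313) and 1.0 for Ier2 (edgeR adjusted p = 0.00327). It was 1.05 for Zfp36l2 (edgeR adjusted p = 0.0047), 1.5 for Dusp5 (edgeR adjusted p = 0.00981), 0.80 for Nfkbia (edgeR adjusted p = 0.0265) and 0.66 for Junb (edgeR adjusted p = 0.0415). Of these, Dusp2, Ier2 and Dusp5 had a positive difference in stage 0-like cells and a negative one in iNKT1-like cells, and none of the 7 passed the test in either class alone. The call of all 7 was lost without Hivep3-/- replicate 1 and by DESeq2.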

How the results depend on the processing

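The genotype difference in the summed level kept its sign in all kept cells and in iNKT1-like cells under every alternative run; leaving out 1 library moved it between -58.1 and -11.2 UMIs per 10,000 in all kept cells and between -113 and -15.4 in iNKT1-like cells. It also kept its sign when 1 library was left out in clusters 3 (-98.6 to -13.0) and 6 (-120 to -14.3), but not in the other named classes and cluster 8. It ranged from -7.56 to 10.4 in stage 0-like cells (1.41 with all libraries), -6.12 to 7.90 in cycling-like cells (0.889), -9.66 to 12.4 in iNKT2-like cells (1.37), -24.2 to 15.5 in iNKT17-like cells (-4.34) and -20.3 to 8.76 in cluster 8 (-5.78). Without Junb it was -0.282 in cycling-like and -2.40 in iNKT2-like cells, thinned to 2000 UMIs it was -0.881 in cycling-like cells, and in cluster 8 it was 3.80 as a median over cells and 2.84 without the highest doublet scores; the cause was not tested.

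Counts of listed genes called by genotype depended on the settings. Without the low-count filter all kept cells gave 9 (5.46% of all genes called), stage 0-like cells 2 (1.23%), cycling-like cells 10 (7.01%), iNKT2-like cells 8 (2.64%), iNKT17-like cells 1 (0.731%), iNKT1-like cells 16 (2.72%) and the interaction 13 (2.94%). DESeq2 called 1 in all kept cells (3.36%), 1 in iNKT1-like cells (1.32%) and 0 for the interaction (0.964%). The stricter cell filter gave 1 in stage 0-like cells (0.936%), and in iNKT2-like cells no TMM scaling gave 0 (0.217%) and clustering with the listed genes gave 0 (0.309%). Leaving out 1 library gave 0 to 2 for all kept cells (2 without Hivep3-/- replicate 2, 0.695% of all genes), 0 to 8 for stage 0-like cells (8 without Hivep3-/- replicate 2, 1.35%), 3 to 10 for cycling-like cells (10 without C57BL/6 replicate 2, 5.04%), 1 to 7 for iNKT2-like cells (7 without C57BL/6 replicate 2, 2.47%), 1 to 9 for iNKT17-like cells (1.63%) and 0 to 9 for iNKT1-like cells (1.13%), both 9 without Hivep3-/- replicate 2, and 0 to 13 for the interaction (13 without Hivep3-/- replicate 2, 1.75%); the cause was not tested.

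Replicate numbers are shared by the genotypes only as numbers: no label ties the mice, and deviations of replicate 1 correlated at r = 0.0133 over 12291 genes. With the replicate block, all kept cells gave 1 call (1.72% of all genes), stage 0-like cells 5 (3.23%), cycling-like cells 3 (7.48%), iNKT2-like cells 1 (0.878%), iNKT17-like cells 0 (0.724%) and iNKT1-like cells 0 (0.726%). With no replicate block, that is no library term, iNKT1-like over iNKT2-like gave 17 (35.2%).

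With 2 mice per genotype, the exact test cannot pass 0.05, and counting depth limits Ier3 and Atf3, which had at most 2 UMIs per library in stage 0-like cells.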

Other observations

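The clusters that stayed unnamed spanned the range of the list. Cluster 3, led by Klra3, Dusp1 and Cxcr3, had a summed level of 201, 115, 73.9 and 131 UMIs per 10,000, and cluster 6, led by the interferon-induced genes Ifit3, Ifit1 and Isg15, had 224, 118, 74.0 and 133. Both lay close to the iNKT1-like level of the same library, with C57BL/6 replicate 1 highest and Hivep3-/- replicate 1 lowest. Cluster 8 had 67.1, 38.1, 39.2 and 54.4. Cluster 12, of shallow cells led by Malt1, had 303, 122, 96.9 and 202 before thinning, on 90, 5, 16 and 3 cells. These values were above the unthinned iNKT1-like level in every library. Thinned to 2000 UMIs per cell, cluster 12 had 114, 255, 152.5 and 162.5, on only 14, 1, 2 and 2 cells. The thinned iNKT1-like levels were 209, 113, 67.9 and 129, so cluster 12 was then lower in C57BL/6 replicate 1 and higher in the others. With so few cells left, the thinned values cannot settle the order. Leaving out C57BL/6 replicate 1, C57BL/6 replicate 2, Hivep3-/- replicate 1 or Hivep3-/- replicate 2 gave 0, 12, 0 and 5 calls of listed genes by genotype in cluster 3, against 0.0445%, 1.73%, 0.311% and 0.513% of all genes, and 0, 12, 0 and 0 in cluster 6, against 0.878%, 1.56%, 0.139% and 0%.

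Among the other lists, genotype calls in cycling-like cells, where 3.79% of all genes were called, were 5 of 27 family relatives, 1 of 15 other immediate-early genes and 2 of 15 NF-kB pathway genes. Of the relatives, Tsc22d1 (3.38 on the log2 scale) and Batf3 (2.29) were higher in Hivep3-/- cells, and Ier3ip1 (-0.71), Rgs10 (-0.71) and Dusp10 (-1.09) were lower. Dusp10 is named here after its values were seen. Nr4a2, a nuclear receptor of the immediate-early response, was higher, at 2.25, and Bcl2a1d (-2.57) and Bcl2a1b (-2.59), near-identical genes of the BCL2 family whose counts are uncertain, were lower.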
